A study of Chlorocebus sabaeus with 18 samples.

Results

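The comparison described here sets COS-7 cells in which the splicing factor TRA2A was knocked down (siTRA) against control COS-7 cells (CTL). It takes in 6 of the 18 samples of the series, 3 per group, chosen by their labels alone. COS-7 is a fibroblast-like line from the kidney of the African green monkey, transformed with a simian virus antigen, and both groups were of this line. The labels describe the CTL samples only as control cells, and no group is described as having received an empty vector or a control siRNA. An effect of transfection, or of the siRNA itself, therefore cannot be told apart from an effect of less TRA2A in siTRA against CTL. For the siRNA itself this also holds where a change recurs in both knockdown groups. The labels give no siRNA sequence and no time after transfection. The 3 other groups with counts that stand beside the comparison are cells carrying 60 CGG repeats of the FMR1 leader (CGG), cells overexpressing TRA2A (TRA_OE), and cells with the repeat and the knockdown together (CGG_siTRA), each with 3 libraries. The titles of the TRA_OE samples read GFP_TRA, and the titles do not explain the GFP. The group with both the repeat and overexpression was not analysed here.

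TRA2A is an SR-like protein. It binds purine-rich exonic enhancers through an RNA recognition motif between a pair of arginine- and serine-rich regions and generally promotes the inclusion of the exons it binds. Its paralogue TRA2B acts on an overlapping set of exons. Both genes carry conserved alternative exons whose inclusion yields a transcript that is not translated into the full protein, and SR-family proteins commonly lower their own output by promoting such exons. Removing TRA2A can thus be read in the libraries on 2 levels: the count of a gene, and the share of that count that falls in each of its exons.

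Counts were deposited per exon bin, a stretch of exon cut at every exon boundary of the human annotation, and were summed over the bins of a gene. A read that spans several bins adds to each. Totals over bins ran from 121142115 to 203957869 across the 15 libraries, and the lowest was library 14, 1 of the 3 of siTRA. Libraries are called by the number in their count column, which could not be tied to the numbers in the sample titles: 1, 2 and 3 are CTL, and 13, 14 and 15 are siTRA. Values below are counts after TMM scaling, which levels the libraries over all genes. The titles of 2 CGG_siTRA samples name different rounds, which are not explained there and could not be tied to libraries. For CTL and siTRA nothing says that the 3 samples of a group came from separate cultures or rounds. P-values rest on the spread between libraries within all 5 groups with counts, estimated together. That spread may be technical, and it is not that of CTL and siTRA alone. The files pair no gene ID with a name. All genes but TRA2A therefore appear by position on GRCh38, the human assembly of the annotation. What each of them does can for that reason not be described, and whether the cells carried markers of kidney epithelium or fibroblasts could not be checked.

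Library 14 stood apart from the rest. Its log-scale correlation with the other 2 siTRA libraries averaged 0.9847, against 0.9896 for library 13 and 0.9888 for library 15, and 0.9919 or more in every library of the other groups. Among 11153 genes with a mean count of 200 or more, 488 differed 1.5-fold or more in library 14 from the mean of libraries 13 and 15. The same count was 69 for library 13, 123 for library 15 and 7 to 125 in the other 12 libraries. Library 14 also had 3.93% of its counts in bins over 2000 nucleotides, against 2.52% to 3.26% in the 14 other libraries. In the 3′-most bins of genes it had 5.78%, against 3.95% to 4.95% elsewhere. In the 5′-most bins it had 0.551%, inside the range of the others, 0.511% to 0.670%. Library 14 was thus outside the range of all other libraries for long and 3′-most bins and not for 5′-most bins. Results that rest on it are given with and without it.

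**Figure D1:**
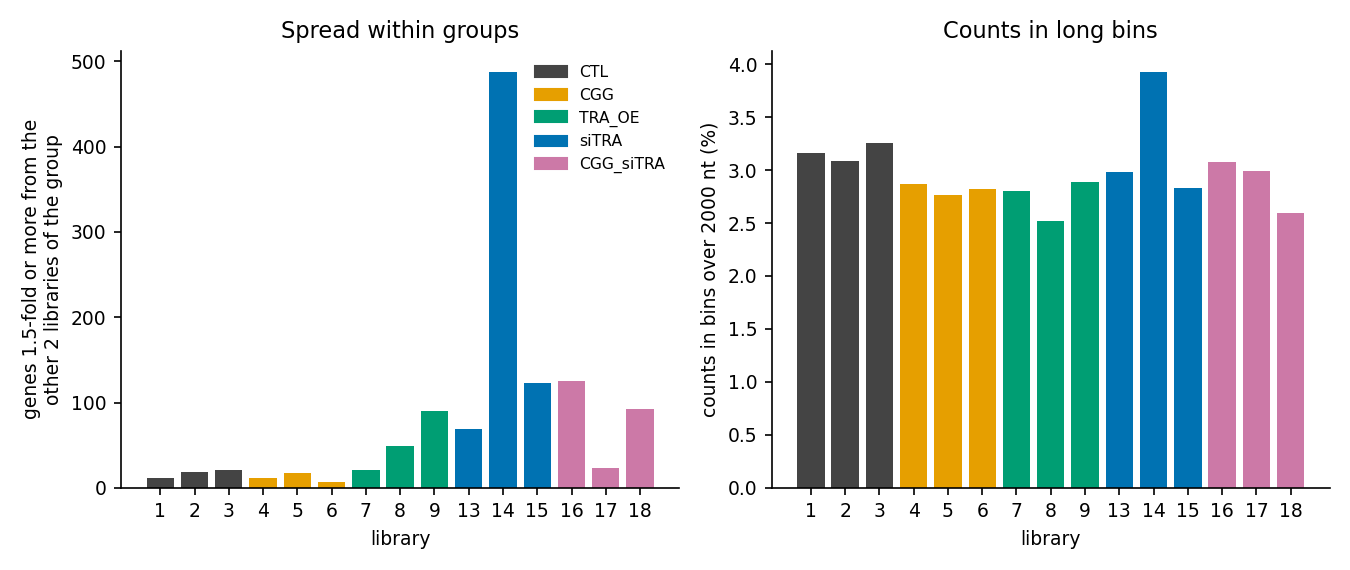
Left, for each of the 15 libraries, the number of genes (of 11153 with a mean count of 200 or more) whose count is 1.5-fold or more from the mean of the other 2 libraries of its group. Right, the percentage of a library's counts in bins over 2000 nucleotides. Bars are coloured by group. Library 14 of siTRA is highest in both panels, with 488 genes and 3.93%.

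The targeted gene was checked first. Of 14969 genes tested, 1 was raised 2-fold or more by TRA2A overexpression and lowered 2-fold or more in both knockdown groups. This was ENSG00000164548.10 at chr7:23504780-23532041 on the minus strand, and it was taken to be TRA2A. The choice itself used these levels, which are thus a weak check of the labels. The CTL libraries 1, 2 and 3 had 16311, 16301 and 16278 counts. The siTRA libraries 13, 14 and 15 had 3753, 4742 and 3142. These are 23.0%, 29.1% and 19.3% of the CTL mean, so library 14 kept the most TRA2A. The 3 CGG libraries lay near CTL, at 16483, 15127 and 15621. In TRA_OE the counts were 195295, 176095 and 208214, and in CGG_siTRA they were 4209, 4613 and 4492. The fitted log2 change in siTRA against CTL was −2.07 ± 0.11 (SE), and in CGG_siTRA against CGG, which uses other libraries, it was −1.83 ± 0.11. The difference between these changes did not pass the test (−0.25, adjusted p = 0.261, edgeR quasi-likelihood test with Benjamini-Hochberg adjustment). TRA2B could not be identified in the files.

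Across the transcriptome, siTRA differed from CTL in many genes by small amounts. Of 14969 genes or groups of overlapping genes tested, 5683 (38.0%) passed an adjusted p of 0.05 in edgeR's quasi-likelihood test, 2702 (18.1%) higher and 2981 (19.9%) lower. The median size of the called changes was 0.41 on the log2 scale. A 2-fold change or more was reached by 270 of the genes that rose and 298 of those that fell, and a 4-fold change by 65 and 48. The split between higher and lower genes depended on the scaling. With the authors' own scaling factors 1971 genes rose and 3654 fell, the median over all genes moving from −0.005 to −0.066. With only the 6 libraries of CTL and siTRA in the fit, 4760 genes were called, 2357 higher and 2403 lower. Without library 14, in the fit of all 5 groups, the counts were 2725 higher and 2932 lower. Of the 5683 genes called with it and the 5657 called without it, 4790 were shared.

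**Figure D2:**
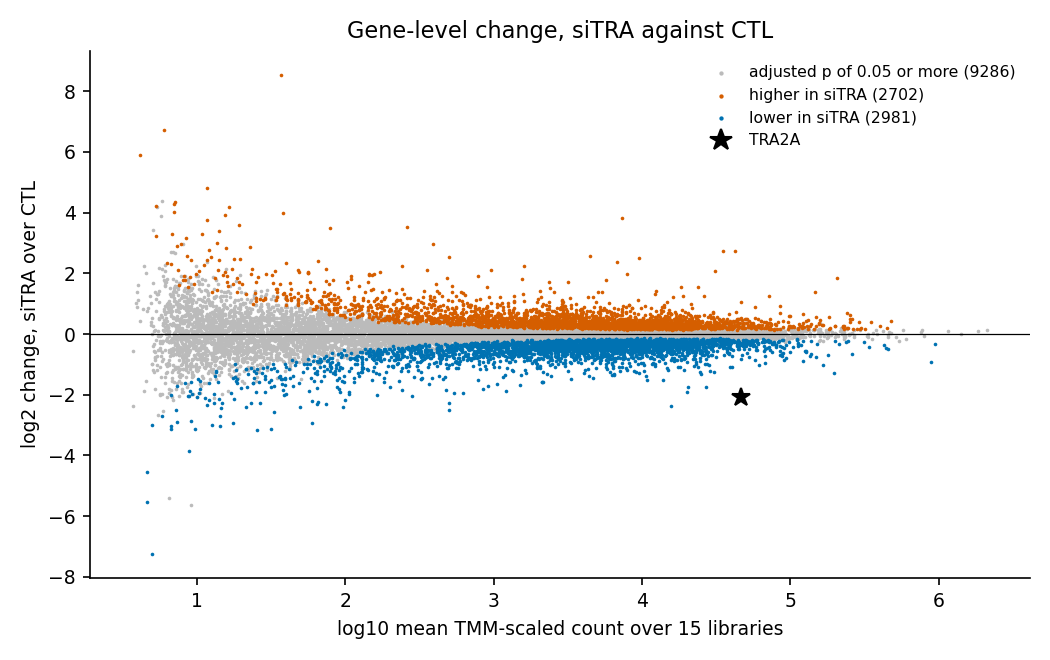
Each point is a gene: the log10 of its mean TMM-scaled count over 15 libraries (x) against its fitted log2 change in siTRA over CTL (y). Orange points (2702) rose and blue points (2981) fell at an adjusted p under 0.05, grey points did not pass, and the star is TRA2A at −2.07. Most coloured points lie within 1 log2 unit of 0.

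The rise with the largest fitted change was at chr7:134527592-134541408 (ENSG00000198074.9). Its counts were 642, 701 and 616 in CTL libraries 1, 2 and 3, and 10207, 6393 and 11160.1 in siTRA libraries 13, 14 and 15. The groups were far apart, and library 14 was the lowest of siTRA. The change was 3.83 ± 0.16 on the log2 scale (adjusted p = 1.18e-11), and the siTRA mean was 14.2 times that of CTL. The next largest rise lay in the same stretch of the chromosome, at chr7:134564788-134579875 (ENSG00000227471.8). There CTL had 57.2, 20.2 and 12.2 counts, and siTRA had 309, 392 and 323 (3.53 ± 0.33, adjusted p = 2.45e-07). The CTL counts were low and spread widely. All lay below those of siTRA, which the rule for naming genes required. Leaving out 1 library moved the change between 3.16 and 4.38, the latter without library 1.

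Both of these genes were about as high in cells that received the repeat and no knockdown. In CGG the first had 11986, 12309 and 12576 counts, so that siTRA against CGG gave −0.41 ± 0.14 (adjusted p = 0.0525). The second had 408, 442 and 373 in CGG (−0.26 ± 0.27, adjusted p = 0.559). In TRA_OE, with TRA2A raised, they had 5667, 4642 and 5492 counts and 154, 128 and 196 counts. These TRA_OE libraries lay between CTL and siTRA for both genes.

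Of the other 8 of the 10 largest rises, 2 were on chromosome 4. At chr4:73740506-73743716 CTL had 83.8, 94.1 and 102 counts and siTRA 707, 889.8 and 612 (2.97 ± 0.16, adjusted p = 3.55e-10). Here library 14 was the highest. At chr4:87975650-87983426 CTL had 7916, 8007 and 7243 and siTRA 54657, 41686 and 59068 (2.75 ± 0.11). At chr22:35380361-35394214 the CTL counts were 6685, 7498 and 6830.5 and those of siTRA 49972, 34741 and 54016 (2.72 ± 0.13). The last of these had similar counts in every treated group, 49858 to 58821 in CGG and 47669 to 56692 in TRA_OE. The remaining 5, with log2 changes of 2.11 to 2.57, were at chr19:18382170-18389176, chr7:23236668-23275108, chr14:93934153-93976730, chr5:94703741-95284575 and chr11:78063861-78068351. At the gene on chromosome 11 the TRA_OE libraries had 102, 88.6 and 115 counts, inside the CTL range of 75.1 to 134, while siTRA had 478, 340.1 and 556. In 8 of the 10 genes library 14 was the siTRA library nearest to CTL, and in 2 the farthest. Among the 10 largest falls, described next, it was the nearest in 5 and the farthest in 4.

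The fall with the largest fitted change was at chr1:41478775-41484673 (ENSG00000127129.9). CTL had 1077, 1176 and 1284 counts and siTRA 243, 154 and 216 (−2.52 ± 0.24, adjusted p = 2.32e-07). In CGG it had 383, 283 and 313, and in TRA_OE 594, 659.9 and 383, so siTRA was the lowest of these groups on average. Against CGG the difference was −0.66 ± 0.24 (adjusted p = 0.0681), and against TRA_OE −1.41 ± 0.23 (adjusted p = 0.000199). Of the 10 largest falls, the one with the smallest standard error was at chr17:80467148-80477843. It went from 43638, 44316 and 45301 counts in CTL to 8361, 9730.5 and 7827 in siTRA (−2.36 ± 0.08, adjusted p = 1.97e-12). The other treated groups had nearly the same counts there, 8554 to 8838 in CGG, 7591 to 8732 in TRA_OE and 7738 to 9295 in CGG_siTRA. CTL alone was apart, at about 5.14 times the siTRA mean.

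At chr1:11857464-11858931 CTL had 1467, 1520.3 and 1334 counts and siTRA 271, 385 and 240.1 (−2.28 ± 0.18). The CGG libraries were lower still, at 203, 212 and 180.4, and siTRA was higher than CGG by 0.59 ± 0.19 (adjusted p = 0.0446). The gene at chr7:138706295-138786243 was, of the 10 falls, the one whose change moved most when 1 library was left out. CTL had 202, 219 and 227 counts, and siTRA 72.4, 10 and 79.7, with library 14 far below the others (−1.96 ± 0.39, adjusted p = 0.000634). Over the fits that left out 1 of the 6 libraries its change ranged from −2.33 to −1.51 and its highest adjusted p was 0.0028. The other 6 of the 10 falls had log2 changes from −2.39 to −1.93, and their highest adjusted p in the fits leaving out 1 library was 2.57e-05. They lay at chr4:118850688-119061245, chr20:35226654-35277000, chr5:167284799-168264157, chr11:130404925-130428993, chr4:174490177-174522731 and chr11:67006778-67050863.

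**Figure D3:**
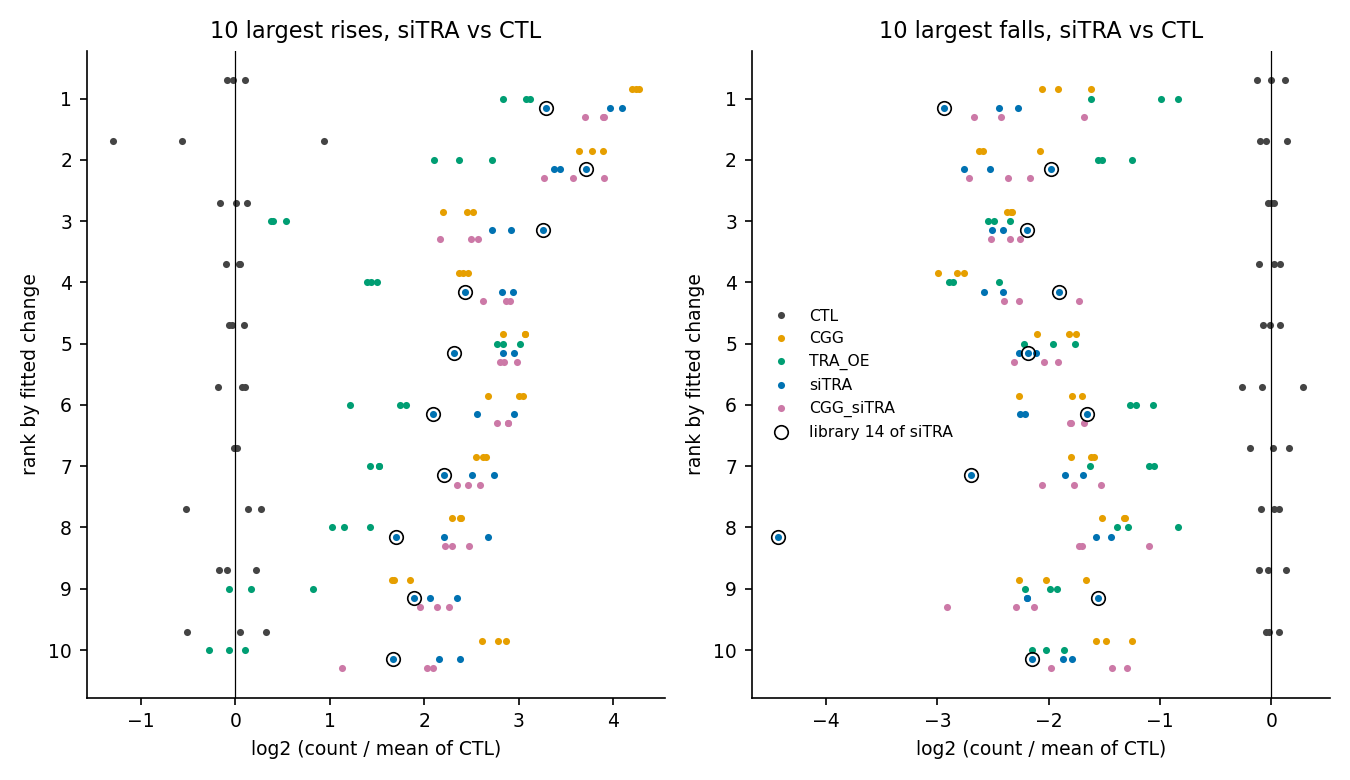
The log2 ratio of a library's count to the CTL mean (x) for the 10 genes with the largest rise (left) and the 10 with the largest fall other than TRA2A (right), by rank (y). Each point is 1 of 15 libraries, coloured by group, and library 14 of siTRA is ringed. Rank 5 on the left and rank 3 on the right are genes in which CGG, TRA_OE and CGG_siTRA lie beside siTRA and away from CTL.

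Against the groups that were treated without the knockdown, siTRA differed in fewer genes. Against CGG, 2344 genes (15.7%) passed the test, 1012 (6.76%) higher and 1332 (8.90%) lower, and without library 14 these were 742 and 1073. Against TRA_OE, 4724 (31.6%) passed, 2202 (14.7%) higher and 2522 (16.8%) lower. Of the 2702 genes higher than in CTL, 536 (19.8%) were also higher than in both CGG and TRA_OE, and of the 2981 lower ones 862 (28.9%) were also lower than in both. The 3 comparisons share the siTRA libraries. Of the 10 largest rises 2 passed against CGG, those on chromosome 4, and of the 10 largest falls 1 was lower than in CGG, at chr11:67006778-67050863 (−0.50 ± 0.15, adjusted p = 0.031).

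Of the 5 largest falls that passed against all 3 of these groups, the 2 smallest, described first, had counts in CGG and TRA_OE near or above those of CTL. Lower counts in siTRA than in CTL, CGG and TRA_OE were required of all 5. The gene at chr15:41230839-41281890 had 26367, 27236 and 27281 counts in CTL and 8117, 8852 and 7187 in siTRA. It had 32032, 30902 and 30922 in CGG and 28647, 26572 and 28333 in TRA_OE, so that no library with normal or raised TRA2A came below 26367. The siTRA changes were −1.74 ± 0.08 against CTL, −1.96 ± 0.08 against CGG and −1.79 ± 0.08 against TRA_OE, with adjusted p of 1.01e-10 or less. In CGG_siTRA the counts were 7400.0, 7265 and 8808, a change from CGG of −2.0 ± 0.08 (adjusted p = 5.12e-11). The gene at chr20:37289638-37317260 was alike: 1900.1, 1915 and 1831 in CTL, 604, 653 and 514 in siTRA, 2144, 2142 and 2017 in CGG, and 2238, 2311 and 2216 in TRA_OE. Its change was −1.68 ± 0.10 against CTL and −1.51 ± 0.10 in CGG_siTRA against CGG. The levels left in siTRA, 29.9% and 31.4% of CTL, compare with 23.8% for TRA2A. For these 2 genes an effect of the siRNA itself and one of less TRA2A cannot be told apart.

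The 3 larger of the 5 falls were also lower in CGG and TRA_OE than in CTL. At chr5:168291651-168472303 the counts were 43888, 43081 and 42712 in CTL, 15699, 14879 and 14325 in CGG, 17443, 17426 and 16739.8 in TRA_OE, and 11919.5, 10989 and 11584 in siTRA. The siTRA libraries were the lowest of these 12, by −0.38 ± 0.06 from CGG (adjusted p = 0.000109). The others were at chr11:45648877-45665622 (−1.84 ± 0.12 against CTL, −0.41 ± 0.12 against CGG) and chr12:21764955-21774821 (−1.75 ± 0.21 and −0.84 ± 0.21).

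Among the rises, the 5 leading genes that passed against all 3 groups had higher counts in CGG than in CTL. Higher counts in siTRA than in CTL, CGG and TRA_OE were required of all 5. At chr7:155297889-155310235 CTL had 3219.9, 3309.8 and 2738 counts, CGG 7515, 8887 and 8937, TRA_OE 5455, 4601 and 5144, and siTRA 11554, 13173 and 12194. The order CTL, TRA_OE, CGG, siTRA held without overlap between any of their libraries, and siTRA was above CGG by 0.54 ± 0.10 (adjusted p = 0.000893). At chr3:185506262-185552613 CTL had 253, 204 and 168 counts, CGG 474, 472 and 432, and siTRA 709.8, 670.2 and 856 (0.70 ± 0.14 against CGG, adjusted p = 0.00163). CGG_siTRA had 764, 628 and 719.6 there, 0.62 ± 0.14 above CGG. The gene at chr1:109910242-109930992 rose by 1.77 ± 0.09 against CTL and was 0.31 ± 0.09 above CGG. The 2 genes on chromosome 4 described above complete the 5, at 0.58 ± 0.15 and 0.33 ± 0.10 above CGG.

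The knockdown was also made in cells with the repeat, and CGG_siTRA against CGG shares no library with siTRA against CTL. In that comparison 1522 genes (10.2%) passed the test, 619 (4.14%) higher and 903 (6.03%) lower. The lists of higher genes shared 319, which is 11.8% of the siTRA list and 51.5% of the CGG_siTRA list, while 62 (2.29%) of the siTRA list were lower there. The lists of lower genes shared 591, or 19.8% and 65.4%, and 77 (2.58%) of the siTRA list were higher there. For most of the named genes the change was smaller with the repeat. At chr17:80467148-80477843, for instance, CGG_siTRA differed from CGG by −0.02 ± 0.08 (adjusted p = 0.905).

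Longer genes fell more often than short ones. When genes were divided into 5 classes of equal size by summed exon length, 8.98% of the shortest class (up to 2486 nucleotides) were lower in siTRA and 15.3% higher, with a median log2 change of 0.08. In the longest class (8131 or more) 27.3% were lower and 16.7% higher, with a median of −0.05. Without library 14 the lower shares were 8.18% and 28.7%. The medians of the shortest and longest class were 0.10 and −0.04 in library 13, 0.05 and −0.03 in library 14, and 0.06 and −0.07 in library 15, so the sign of the contrast was the same in each. The medians of CGG against CTL, which shares the control libraries, were 0.10 and −0.08 in the same classes. The share of lower genes also grew with the number of bins of a gene. It was 11.9% in the class with the fewest bins (2 to 10) and 27.9% in that with the most (41 to 228). Without library 14 these shares were 12.6% and 26.4%. The medians of these classes were 0.05 and −0.06 with library 14, and only −0.01 and −0.03 without it. By library they were 0.06 and −0.03 in library 13, 0.11 and −0.12 in library 14, and −0.02 and −0.03 in library 15. The contrast in medians was thus widest in library 14 and nearly absent in library 15. Genes with more counts were called more often, from 5.54% higher and 5.41% lower in the class with the fewest counts to 23.8% and 24.3% in that with the most.

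The second level is the use of single exon bins. Relative use is a bin's count against the other bins of its gene, so that a change of the whole gene does not move it. Within TRA2A itself, most bins fell together. The 7 bins with 1000 or more counts in CTL were left at 0.197 to 0.228 of it. A stretch near the 5′ end fell less. The bin chr7:23521841-23522120 had 138, 106 and 132 counts in CTL and 96.2, 112 and 45.3 in siTRA, a ratio of 0.672. Its relative use rose by 1.48 on the log2 scale (adjusted p = 6.18e-05, edgeR diffSpliceDGE with Benjamini-Hochberg adjustment), and its share of TRA2A counts went from 0.772% ± 0.104 (SD, n = 3) to 2.12% ± 0.599.

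Upstream of it, the bins chr7:23522132-23522353 and chr7:23522354-23522432 rose likewise in relative use, by 1.01 and 1.25 (adjusted p = 0.00172 and 0.000538). The bin of 11 nucleotides that separates them from the first, chr7:23522121-23522131, did not pass (1.01, adjusted p = 0.0896). The 3 called bins of this stretch remained called in each fit that left out 1 of the 6 libraries, the highest adjusted p being 0.032. Another, separate bin, chr7:23531417-23531680, had 26.6, 39.6 and 35.7 counts in CTL and 41.9, 23.8 and 24.6 in siTRA, and so hardly moved while the gene fell. Its relative use rose by 1.90 (adjusted p = 0.00298), but not without library 1 (adjusted p = 0.0624) or library 13 (adjusted p = 0.158). In CGG_siTRA against CGG the relative use of the 4 called bins rose by 2.18, 1.25, 1.27 and 2.16, in the order given here, with adjusted p from 4.53e-10 to 0.00219. All of this stays within a small part of the gene's counts, since each of the 4 bins held under 4% of them in every siTRA library.

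**Figure D4:**
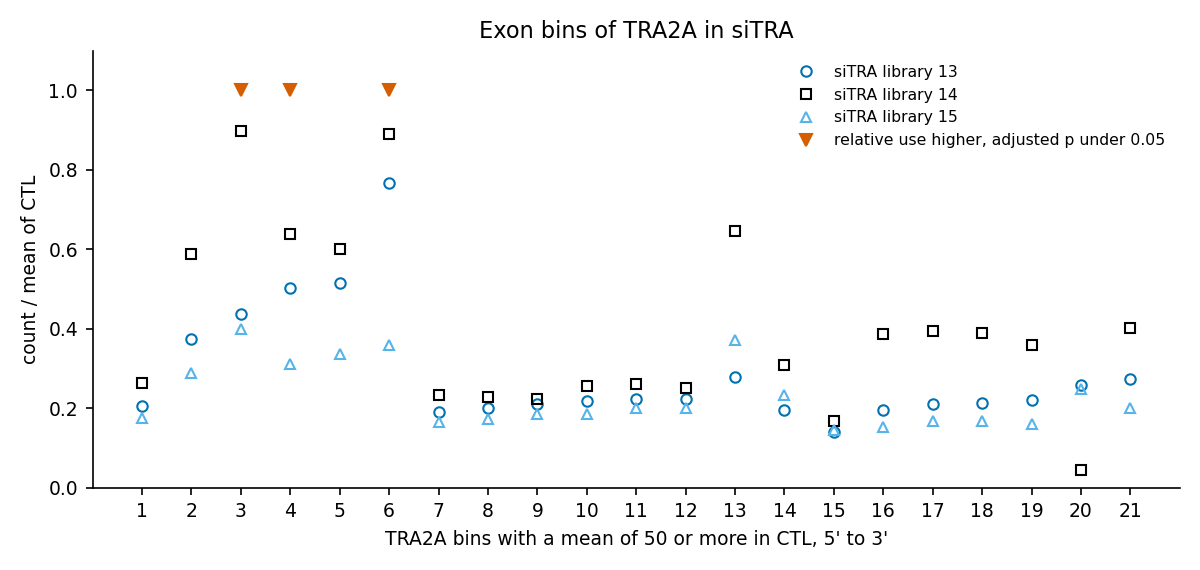
The 21 TRA2A bins with a mean of 50 or more counts in CTL, in order from the 5′ end (x), against the count in each siTRA library as a ratio to the CTL mean (y). Triangles at the top mark 3 bins whose relative use rose at an adjusted p under 0.05, and the other called bin has fewer counts and is not drawn. The high-count bins (7 to 12) lie near 0.2 in all 3 libraries, while bins 2 to 6 lie above that, with a wide spread between libraries.

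Over the whole table, 1348 of 265486 bins tested (0.508%) changed in relative use, 855 (0.322%) higher and 493 (0.186%) lower, in 675 genes or groups of overlapping genes. Groups of overlapping genes, in which a bin cannot be assigned to 1 gene and a change of either gene moves bins of the other, gave 636 of the calls, at 1.43% of their bins. Single genes gave 712, at 0.322%, of which 515 were higher and 197 lower, in 488 genes. Most called bins were minor parts of their gene: 311 of the 515 and 90 of the 197 held under 1% of its counts in both groups, and a shift of 5 percentage points or more was seen in 12. The counts depend on single libraries. Without library 1, 2 or 3, all CTL, the higher and lower bins numbered 481 and 253, 354 and 252, or 416 and 259. Without library 13 they were 860 and 691, without library 14 701 and 295, and without library 15 1079 and 744. All bin-level fits that left out 1 library kept the trend of spread with count estimated from all 15 libraries, the left-out one included.

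The share of bins called higher was 0.287% at up to 27 nucleotides and 0.262% at 28 to 100. Above 200 nucleotides it grew with bin width, and less so without library 14. Among bins of 101 to 200 nucleotides 0.185% were higher and 0.194% lower. Among those over 2000 nucleotides 1.23% were higher and 0.329% lower. Without library 14 these became 0.186% and 0.0963% for the shorter class, and 0.504% and 0.504% for the longest. In the 3′-most bins of genes 37 of 7239 were higher and 13 lower with library 14, and 7 and 17 without it, so that the balance turned over. The excess of higher calls among bins over 1000 nucleotides and 3′-most bins thus was not seen without library 14, the library with the most counts in bins over 2000 nucleotides and in 3′-most bins. In single genes alone, bins of 1001 to 2000 nucleotides kept a small excess without library 14, 0.348% higher against 0.266% lower. In each class up to 1000 nucleotides higher calls outnumbered lower ones without library 14 too, from 0.319% against 0.0886% in bins up to 27 nucleotides to 0.387% against 0.330% in those of 501 to 1000.

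**Figure D5:**
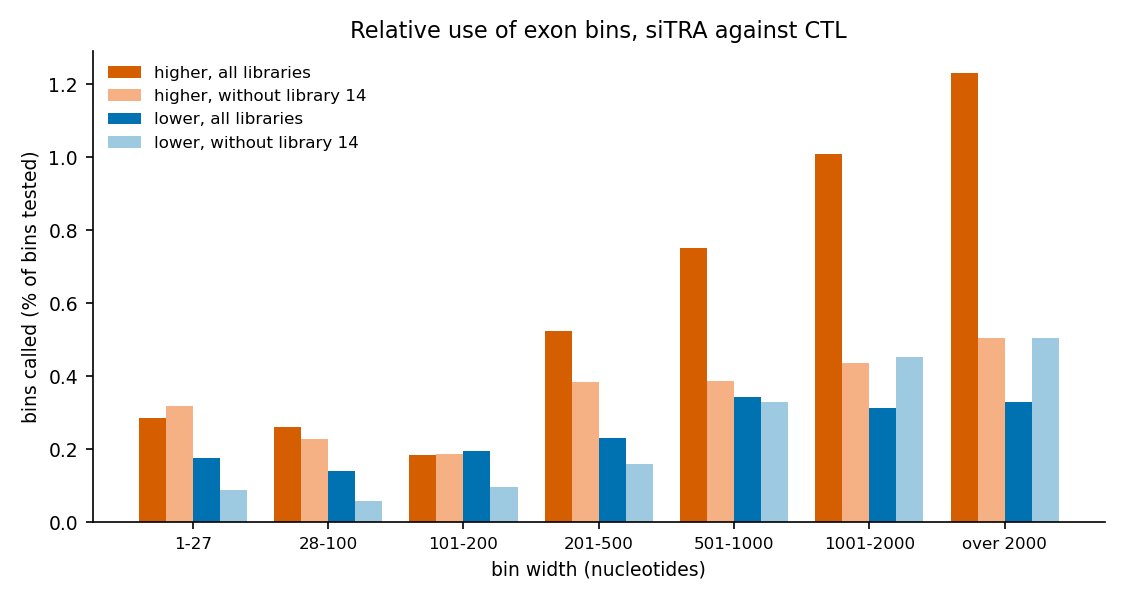
The percentage of tested bins called higher (orange) or lower (blue) in relative use in siTRA against CTL (y), by bin width (x). Dark bars are the fit of all libraries, and pale bars the fit without library 14. The dark orange bars fall from 0.287% at up to 27 nucleotides to 0.185% at 101 to 200. They then grow to 1.23% over 2000, where both pale bars stand at 0.504%.

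The 10 largest rises in relative use in single genes remained called in each fit that left out 1 of the 6 libraries. They lay in bins of 48 to 1678 nucleotides, 8 of them over 300. At chr17:64128752-64129975, a bin of 1224 nucleotides, CTL had 10.2, 17.6 and 14.1 counts and siTRA 50.5, 97.9 and 64.9. Its share of the gene's counts went from 1.27% ± 0.355 to 7.35% ± 2.16 (SD, n = 3), a rise of 2.51 on the log2 scale (adjusted p = 7.31e-12), with library 14 the highest. CGG held 3.58% and TRA_OE 2.65%, and siTRA was above CGG by 1.05 (adjusted p = 0.0307), a test that 0.199% of all bins passed. At chr2:232567528-232568020 CTL had 58.2, 75.6 and 77.0 counts and siTRA 355, 343 and 407. There the share went from 0.572% ± 0.0770 to 2.36% ± 0.109 (2.04, adjusted p = 5.6e-29), and the 3 siTRA libraries lay close together. The same bin held 2.21% in CGG and 2.09% in CGG_siTRA, and siTRA did not pass against CGG (0.09, adjusted p = 1).

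At chr4:56399401-56400783, 1383 nucleotides long, CTL had 86.8, 77.4 and 69.5 counts and siTRA 229.6, 261 and 213, while the gene's total fell from a mean of 17656 to 12446. The bin therefore rose in count as the rest of its gene fell, by 2.09 in relative use (adjusted p = 1.15e-24). CGG held 1.62% against 1.88% in siTRA and 0.442% in CTL. The other 7 had changes of 1.89 to 2.22, and lay at chr4:183445666-183446021, chr1:167773369-167773909, chr6:118910597-118911649, chr1:244847054-244847101, chr17:28924303-28925980, chr19:2476639-2477028 and chr20:43667019-43667156. None of the 10 passed in CGG_siTRA against CGG, where 0.135% of bins did.

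The 10 largest falls in relative use were smaller, from −1.36 to −1.10, and less steady. Without library 1, 2, 3, 13, 14 or 15, the number still called was 5, 8, 6, 7, 5 and 6. The one called in all 6 of these fits was chr12:104288895-104288930, a bin of 36 nucleotides. It had 70.5, 73.9 and 94.9 counts in CTL and 45.7, 67.8 and 63.0 in siTRA, while the gene's total went from 50143 to 94453 (−1.36, adjusted p = 1.66e-06). At chr2:102718814-102719003 the share was 12.1%, 12.6% and 14.5% in CTL and 7.64%, 3.37% and 5.60% in siTRA (−1.28, adjusted p = 0.00288). Library 14 was the lowest, and without it the adjusted p was 0.128, as it was 0.0569 without library 3. At chr18:3729135-3729375 library 14 had 2.51 counts against 17.2 and 24.6 in the other siTRA libraries, and the call (−1.12, adjusted p = 0.0492) held in 1 of the 6 fits, that without library 15. The other 7 lay at chr18:46089759-46089821, chr1:151401072-151401238, chr17:31937018-31937066, chr5:138543230-138543300, chr16:69925980-69926096, chr19:36580255-36582397 and chr10:91487779-91489981. None of the 10 was called lower in CGG_siTRA against CGG, where 0.0335% of bins were. Nor was any called lower in siTRA than in CGG or TRA_OE. The bin chr18:46089759-46089821 held 0.0135% of its gene's counts in CTL and 0.00528% in siTRA. It was lower than in CTL in CGG too (−1.70, adjusted p = 0.000124), and higher in CGG_siTRA than in CGG (1.30, adjusted p = 0.0428).

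Internal bins of up to 300 nucleotides that touch no other bin are the ones most like a whole exon. This class was looked at after values had been seen. Of 56755 such bins in single genes, 34 (0.0599%) were higher and 30 (0.0529%) lower. In either direction these are 0.113%, beside 0.322% of all bins in single genes. Without library 14 they were 20 and 10. At chr10:24466531-24466790 CTL had 109, 95.8 and 109.9 counts and siTRA 179, 215 and 195. Its share went from 0.672% ± 0.0417 to 1.80% ± 0.0872 (SD, n = 3; 1.42, adjusted p = 2.37e-13), with no overlap and with a call in all 6 fits that left out a library. CGG held 1.42%, and siTRA did not pass against it (0.34, adjusted p = 0.718). At chr10:73396044-73396109, 66 nucleotides, CTL had 29.6, 29.0 and 47.9 counts and siTRA 75.3, 104 and 99.4 (1.01, adjusted p = 0.00602). This bin also passed against CGG (1.08, adjusted p = 0.00327) and in CGG_siTRA against CGG (1.05, adjusted p = 0.00792). It lost its call without library 1 (adjusted p = 0.114), 2 (0.177) or 14 (0.129).

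A single gene held 5 of the lower internal bins, the most of any gene. It spans chr8:61500556-61714640 on the minus strand, and its count rose from a mean of 22344 in CTL to 36930.4 in siTRA (0.72, adjusted p = 2.63e-07). The 5 bins stayed level while the gene rose. At chr8:61548071-61548208 the counts were 259, 217 and 229 in CTL and 231, 177 and 258 in siTRA, and the share went from 1.06% ± 0.126 to 0.604% ± 0.124 (SD, n = 3; −0.81, adjusted p = 5.17e-05). At chr8:61553031-61553120 they were 292, 270.0 and 257 against 263, 235 and 307 (−0.75, adjusted p = 0.0001). Both bins remained called in all 6 fits that left out a library, with the highest adjusted p, 0.0212 and 0.014, without library 14. Both were lower than in CGG too, by −1.02 (adjusted p = 1.07e-07) and −0.85 (adjusted p = 9.99e-06). Neither of these bins passed against TRA_OE (−0.41 and −0.49, adjusted p = 0.323 and 0.0777). In CGG_siTRA against CGG they were lower by −0.84 (adjusted p = 5.21e-05) and −0.70 (adjusted p = 0.00155). The third, chr8:61555924-61556022 (−0.63, adjusted p = 0.00519), lost its call without library 2 (adjusted p = 0.15). The bins chr8:61518032-61518123 and chr8:61562744-61562880 (adjusted p = 0.0471 and 0.0182) were called in 1 and 2 of the 6 fits. The 5 bins belong to 1 gene and are not independent.

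Other genes held 2 called bins of this class, some higher and some lower. At chr4:38053106-38053225 CTL had 249, 230.4 and 283 counts and siTRA 393, 405 and 391 (0.88, adjusted p = 8.41e-08). It remained called in all 6 fits that left out a library. It also passed against CGG (0.60, adjusted p = 0.00668) and in CGG_siTRA against CGG (0.64, adjusted p = 0.00365). Against TRA_OE it did not pass (0.44, adjusted p = 0.112). The gene at chr2:40097270-40611053, by contrast, lost 2 internal bins in relative use. At chr2:40139401-40139676 the counts were 947, 884 and 880.0 in CTL and 420.2, 400.4 and 442 in siTRA, and the share fell from 5.78% ± 0.240 to 3.79% ± 0.536 (SD, n = 3; −0.63, adjusted p = 0.000179). At chr2:40160765-40160864 the share was 4.20%, 4.15% and 4.23% in CTL and 3.06%, 2.0% and 3.18% in siTRA (−0.64, adjusted p = 0.000432). The latter did not pass without library 14 (adjusted p = 0.23). Neither bin passed against CGG (−0.40 and −0.43, adjusted p = 0.148 and 0.139). Both passed against TRA_OE (−0.47 and −0.53, adjusted p = 0.026 and 0.0134). In CGG_siTRA against CGG the changes were −0.17 and −0.24, and neither passed.

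The largest shift in share was in a 3′-most bin, chr6:30562389-30563723, 1335 nucleotides long, again picked after values had been seen. Its share was 18.6%, 16.9% and 18.9% in CTL and 9.64%, 7.60% and 9.43% in siTRA, a fall of 1.0 in relative use (adjusted p = 2.92e-07). It remained called in all 6 fits that left out a library. CGG held 14.1%, TRA_OE 16.4% and CGG_siTRA 12.0%, and siTRA was lower than CGG by −0.64 (adjusted p = 0.0343). The next was the 3′-most bin chr6:11135812-11138733. Its share was 19.4%, 20.5% and 20.0% in CTL and 28.2%, 29.9% and 29.1% in siTRA (0.54, adjusted p = 0.000717). Here CGG held 19.4% and TRA_OE 20.2%, both near CTL, and CGG_siTRA held 27.7%. The relative use was higher by 0.58 against CGG (adjusted p = 0.000556) and by 0.51 in CGG_siTRA against CGG (adjusted p = 0.00569), and the call against CTL held in all 6 fits. This bin was thus high in both knockdown groups and in neither of the treated groups without the knockdown.

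Over all bins, recurrence with the repeat was limited. Of the 855 bins higher in siTRA, 51 (5.96%) were also higher in CGG_siTRA against CGG, which is 19.0% of the 269 (0.101% of all bins) higher there. Of the 493 lower ones, 39 (7.91%) were lower there, 43.8% of a list of 89 (0.0335% of all bins), and 5 were higher.

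The authors' deposited table of DEXSeq results for the same 6 libraries, which were fitted there without the other groups, gave an adjusted p under 0.05 to 5237 of 286633 bins (1.83%). Of the 1348 bins called here, 1024 were among them, all 1024 with the same direction in the authors' deposited table.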

How the data were processed

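RNA came from a Qiagen extraction with DNase, and TruSeq libraries were made after ribosomal RNA was removed, per the labels' protocols. Per the submitters' processing notes, cutadapt 1.14 and STAR 2.5.2 were used and the genome build was the human GRCh38.p10, although the cells are from a monkey. Reads from sequence that differs between the species can be lost. The notes also list DESeq2 without a version. The authors deposited raw counts per exon bin in 6 DEXSeq tables, per the file headers. They deposited a normalised signal per bin for 15 libraries as well. For CTL and siTRA the adjusted p-values and the log2 fold changes of bin use that the authors deposited were read, the latter turned into siTRA over CTL.

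A single factor per library turned the normalised values back into reads, whole to within 0.1 for 100.0% of values and equal to the deposited counts wherever both were listed. In this way 1623 missing cells were filled. Summing 431444 bins gave 19997 genes or groups of overlapping genes, 1905 of them groups. Bins outside the DEXSeq tables held 1.56% to 2.10% of reads. Names were looked up in the RefSeq table given for the monkey (assembly mChlSab1.0.hap1), and 0 of 23133 single Ensembl IDs matched. The gene lists and cell type markers could therefore not be applied, and no sequence is printed.

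Genes entered the test if 3 or more libraries reached a scaled count of 10. The test was the quasi-likelihood test of edgeR 4.0.16 (R 4.3.3) after TMM scaling, with all 15 libraries fitted as 5 groups that share the estimate of the spread. Bin use was tested with diffSpliceDGE of edgeR on 265486 bins of 12608 genes with at least 2 such bins. P-values were adjusted by Benjamini-Hochberg over all features tested, and 0.05 was the threshold. Bin shares are the bin's count over the sum of the tested bins of its gene. Standard errors are the log2 change over the square root of the F statistic. On counts simulated for siTRA against CTL, changes were planted only in a small set of features with higher mean counts. The gene test, run on 14969 genes, recovered 84% of the planted 1.5-fold and 97% of the planted 2-fold changes. Of its 194 calls, 13 were false. The bin test, run on 265486 bins, recovered 43% and 91% of those planted, with 8 of 142 calls false. Calls on other bins of a gene with a planted change were not counted as false. Recovery in features with low counts was not measured. The simulation used the model that the tests assume.

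Named genes are the 10 single genes with the largest rise and the 10 with the largest fall that passed the test. Their higher group had to average at least 200, and the libraries of the 2 groups could not overlap. TRA2A was named apart, and so were the 5 of each direction that also passed against CGG and TRA_OE. Named bins follow the same rule, 1 per gene, with an average of at least 50 and shares that do not overlap. The members and lists were chosen with earlier results of these data known. Alternatives were DESeq2 1.42.0, limma 3.58.1 (pseudocount 1), other scalings and filters, the highest bin of a gene, the 6 libraries alone, and leaving out each library.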

Additional observations from a re-analysis of the deposited data

Results flagged for a closer look

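The effect of the knockdown was compared between cells without the repeat (siTRA minus CTL) and with it (CGG_siTRA minus CGG), as the difference between the 2 log2 changes in edgeR's fit. It passed the adjusted threshold for 2897 of 14969 genes (19.4%), among them 26 of the 28 named genes other than TRA2A. CTL is not described as transfected and CGG is, so the siTRA change holds any effect of transfection and the CGG_siTRA change holds one only of adding the siRNA. The difference between the changes and an effect of transfection cannot be told apart.

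Among the 10 largest rises the difference was 4.22 (SE 0.21, adjusted p = 3.16e-10) at chr7:134527592-134541408 and 3.69 (SE 0.43) at chr7:134564788-134579875. It was 3.05 at chr11:78063861-78068351, where CGG_siTRA was lower than CGG. The genes at chr4:73740506-73743716 and chr22:35380361-35394214 had 2.95 and 2.84. Both chr19:18382170-18389176 and chr7:23236668-23275108 had 2.64. Values of 2.36, 2.28 and 1.72 belonged to chr4:87975650-87983426, chr14:93934153-93976730 and chr5:94703741-95284575.

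Among the 10 largest falls the difference was −3.04 at chr1:11857464-11858931, where CGG_siTRA was higher than CGG. It was −2.41 at chr4:118850688-119061245, −2.34 at chr17:80467148-80477843 and −2.18 at chr1:41478775-41484673. The genes at chr5:167284799-168264157 and chr20:35226654-35277000 had −2.16 and −1.99. Those at chr11:130404925-130428993, chr7:138706295-138786243 and chr11:67006778-67050863 had −1.91, −1.87 (adjusted p = 0.023, the highest of the 26) and −1.81. At chr4:174490177-174522731 it was −1.50.

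Of the genes that also passed against CGG and TRA_OE, the rises at chr7:155297889-155310235, chr1:109910242-109930992 and chr3:185506262-185552613 had differences of 1.65, 1.43 and 1.22. The falls at chr5:168291651-168472303, chr11:45648877-45665622 and chr12:21764955-21774821 had −1.73, −1.56 and −1.31. The 2 named genes that did not pass were chr15:41230839-41281890 (0.26, adjusted p = 0.114) and chr20:37289638-37317260 (−0.16, adjusted p = 0.479).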

How the results depend on the processing

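Every alternative kept the direction and the call of each of the 29 named genes, in 406 of 406 comparisons. These genes were chosen from the same libraries for large changes without overlap, so this is a weak check and does not speak for all called genes. Of the 5683 genes called, 4790 were also called without library 14. The number of genes called stayed within 1.5 times of 5683 in siTRA against CTL under every alternative run. Leaving out 1 library gave 4625 to 6823 genes (2184 to 3483 higher, 2441 to 3340 lower), the upper ends from the fit without library 14 that held only the other 5 libraries of CTL and siTRA, an alternative chosen after seeing the data. Against CGG these ranges were 1815 to 2623 (742 to 1200, 1073 to 1423), and against TRA_OE 4337 to 4614 (2200 to 2310, 2137 to 2304). With limma, 671 genes were higher than in CGG.

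Bin counts moved more. With only the 6 libraries of CTL and siTRA, 688 bins were called (442 higher, 246 lower), with limma's diffSplice 6322 (2733, 3589), and by the adjusted p that the authors deposited 5237 (2687, 2550). Leaving out 1 library gave 606 to 3029 (354 to 1889, 252 to 1140), and the 3029 again came from the 5 libraries alone. The causes were not tested. Of 383 comparisons of named bins, 307 kept the call and 76 kept the direction but not the call.

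No paired analysis was possible because the count columns carry no replicate number of the labels. The lowest total, 121142115, was that of library 14. On simulated counts of siTRA against CTL, 43% of the 1.5-fold changes planted in bins with higher mean counts were recovered. Changes of that size can thus be missed even in such bins, and recovery in bins with low counts was not measured.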

Other observations

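The library sums over chromosome M bins were 0 to 4 counts in libraries 1 to 6 (CTL and CGG) and 10 to 27 in the 9 libraries numbered 7 to 18. Both chromosome M entries tested were called higher in siTRA, on these few counts.

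Library 14 was also far from libraries 13 and 15 in single genes that the comparison with CTL did not lead to. At chr20:2692879-2760101 it had 55.2 counts, against 264.0 and 207.0 in libraries 13 and 15 and 288.0 to 463 in CTL. The gene passed the test with library 14 (adjusted p = 0.0235, edgeR) and not without it (adjusted p = 0.0525). At chr7:114086327-114693768 it had 594, against 286 and 195, and 443 to 523 in CTL, and the gene passed only without library 14 (−1.05, adjusted p = 9.7e-05, against −0.48 and 0.155 with it). Among genes called without library 14, 89.8% had the same direction in library 14. For genes called without library 13 or 15, the share in the library left out was 99.0% and 97.8%.

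Over the autosomes and chromosome X, the share of genes called lower ran from 15.9% on chromosome 15 to 25.3% on chromosomes 16 and 18. The share called higher ran from 10.8% on chromosome 22 to 24% on chromosome 10.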
